A study of Homo sapiens with 15 samples.

Results

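HEK293 cells that carry YAP-MAML2 in condensates were compared with HEK293 cells that carry eGFP alone, across every gene with enough reads to test. HEK293 is a human embryonic kidney line widely used to express introduced genes, and the sample labels call it HEK293T. The members were the 3 libraries of condensed cells and the 3 libraries of eGFP cells, 6 of the 15 RNA-seq libraries of the series, chosen by their sample labels, and 18391 of the 61533 gene identifiers in the count table passed the expression filter. The condensed cells were SPARK-OFF cells that had DMSO for 5 h. In SPARK-OFF the fusion is joined to FKBP and EGFP and is co-expressed with a nuclear mCherry joined to Frb, so that rapamycin, absent here, would recruit mCherry and dissolve the condensates. The eGFP cells were mock-treated, and no duration is given. The 2 groups therefore differ by the fusion, by mCherry-Frb, by DMSO and by the engineered line, and these cannot be told apart. A further group, 3 libraries of no-mCherry cells with DMSO for 5 h, which carry the tagged fusion without mCherry, is set beside the results where its level helps to place them. The study calls the 2 fusion lines stable, and the promoter of the constructs is not given in the sources used here. For the no-mCherry samples the title and treatment labels name DMSO while a description names rapamycin. The title and treatment were followed. No label says that replicates were cultured apart, and the spread behind each p-value may thus be technical.

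YAP is a transcriptional coactivator that the Hippo kinases LATS1 and LATS2 keep out of the nucleus, and it reaches DNA by binding TEAD factors. MAML2 belongs to the Mastermind family of Notch coactivators. In the YAP-MAML2 fusion, known from several human cancers, the TEAD-binding end of YAP is joined to the activating part of MAML2, and the fusion stays in the nucleus and switches on TEAD target genes.

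The libraries held 14941777 to 21223087 counts, of which mitochondrially encoded transcripts took 3.04 to 3.33% in condensed cells and 3.67 to 3.81% in eGFP cells. All 10 genes listed as usual for HEK293 cells were expressed in both groups, with a summed level of 371 to 398 CPM in condensed libraries and 598 to 653 CPM in eGFP libraries. CPM are counts scaled to the library total after TMM correction for library composition. Of 25 markers of other cell types, 11 passed the expression filter, CD3E, CD68, HBB and INS had no count in any of the 6 libraries, and the 11 summed to 39.5 to 42.6 CPM in condensed and 52.6 to 62.8 CPM in eGFP libraries. The libraries also differed along the GC content of the transcripts. The 20% of protein-coding genes richest in GC, relative to the 20% poorest in GC, stood 0.193 to 0.4 higher in eGFP libraries on the log2 scale, and -0.13 to -0.0537 in condensed libraries, both against the mean of all 15 libraries. Because many of the gene groups below differ in GC content, a second fit that removed each library's trend along GC content and length was added after the data were seen, and it is called the GC-adjusted fit.

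The introduced gene was read first. MAML2 (chromosome 11, hg38, 95976598 to 96343195, minus strand) had 395, 442 and 409 CPM in the condensed libraries and 3.81, 4.30 and 2.77 CPM in the eGFP libraries. YAP1 (chromosome 11, 102110447 to 102233424, plus strand) had 181, 213 and 211 CPM in condensed and 51.2, 55.4 and 51.8 CPM in eGFP libraries. Neither gene's groups overlapped, and the log2 fold change (log2FC) was 6.83 (standard error 0.136) for MAML2 and 1.93 (standard error 0.108) for YAP1. Reads of the introduced fusion and of the cells' own YAP1 and MAML2 fall on the same genes and cannot be told apart in these counts.

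A gene was called a DEG at P under 0.01, an absolute log2FC of at least 0.58 and an FDR under 0.1 from edgeR's quasi-likelihood test. Condensed cells had 1145 DEGs with higher and 1281 with lower expression, which were 6.23% and 6.97% of the genes tested. The 2 directions were close in number and unlike in size. A log2FC of at least 1 was reached by 688 DEGs and one of -1 or below by 418, while a log2FC of at least 4 was reached by 127 DEGs and one of -4 or below by 1. The median was 1.23 among the DEGs that were higher and -0.835 among those that were lower. The DEGs that rose included 58 genes, 31 of them protein-coding, with no count in any eGFP library. They passed the filter only through libraries with the fusion, so their direction was fixed by it. Their log2FC comes from the fit and is not a measured fold. They are within the counts by size and the median above, which are not given without them. Of the 812 protein-coding DEGs that rose, 261 had a mean under 1 CPM in eGFP cells, and of the 1123 that fell, 69 had a mean under 1 CPM in condensed cells. Of all 2426 DEGs, 2369 had libraries that did not overlap between the groups, beside 40.5% of all genes tested. In the GC-adjusted fit 1149 genes were higher and 882 lower, of which 948 and 784 were DEGs of the same direction without the adjustment, so that the share of higher genes among the DEGs moved from 47.2% to 56.6%.

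**Figure D1:**
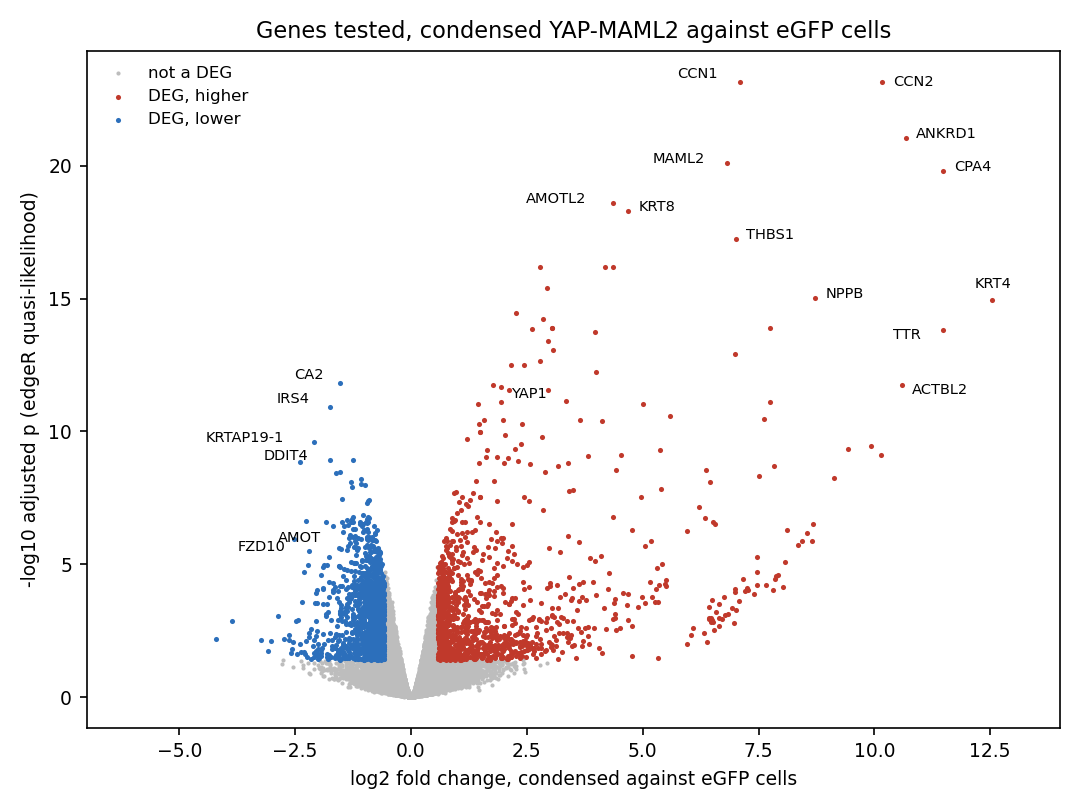
Each point is 1 of the genes tested, with its log2 fold change in condensed against eGFP cells on the x axis and -log10 of the adjusted p on the y axis. Red points are DEGs that were higher and blue points DEGs that were lower, and most blue points lie above -2. The red side reaches a log2FC of 12.53 (KRT4). KRT4 had no eGFP count, so this value comes from the fit, and the counts give only a bound of at least 659-fold.

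The leading genes were 3 long-known TEAD targets. ANKRD1, an ankyrin repeat protein of heart and muscle (chromosome 10, 90912096 to 90921087, minus strand), had 1993, 1576 and 1780 CPM in the condensed libraries and 1.06, 0.648 and 1.58 CPM in the eGFP libraries. CCN2 (CTGF), a secreted matricellular protein (chromosome 6, 131948176 to 131951372, minus strand), had 1498, 1556 and 1351 CPM in condensed and 1.37, 1.47 and 0.924 CPM in eGFP libraries. CCN1 (CYR61), its relative (chromosome 1, 85580761 to 85584589, plus strand), had 1378, 1445 and 1352 CPM in condensed and 9.68, 10.3 and 10.7 CPM in eGFP libraries. The lowest condensed library lay far above the highest eGFP library for each gene. The 3 genes together took 0.451 to 0.476% of all counts of a condensed library and 0.00117 to 0.00134% of those of an eGFP library. Their log2FC was 10.68 (standard error 0.231) for ANKRD1, 10.17 (standard error 0.163) for CCN2 and 7.09 (standard error 0.0867) for CCN1, and the GC-adjusted values were 10.51, 10.17 and 7.06.

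TEAD factors bind the core sequence GGAATG, and the bases before the start of several of these genes hold it. RefSeq's promoters (GRCh38.p14, 250 bases before the start, each written 5′ to 3′ on the strand of its gene) are shown for ANKRD1 and CCN2 and for CPA4 and THBS1, a pair of further genes among the largest increases, with each GGAATG, or its complement, in capitals. ANKRD1 held 2 matches, 220 and 128 bases before the start, and CCN2 held 3, at 169, 104 and 95 bases. CPA4 held 1 at 134 bases and THBS1 held 1 at 46 bases.
ANKRD1, chr10:90921088-90921337, minus strand: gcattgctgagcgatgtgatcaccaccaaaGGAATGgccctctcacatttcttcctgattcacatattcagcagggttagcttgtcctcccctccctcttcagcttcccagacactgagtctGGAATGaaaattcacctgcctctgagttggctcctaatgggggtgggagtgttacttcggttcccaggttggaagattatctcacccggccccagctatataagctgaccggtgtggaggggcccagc
CCN2, chr6:131951373-131951622, minus strand: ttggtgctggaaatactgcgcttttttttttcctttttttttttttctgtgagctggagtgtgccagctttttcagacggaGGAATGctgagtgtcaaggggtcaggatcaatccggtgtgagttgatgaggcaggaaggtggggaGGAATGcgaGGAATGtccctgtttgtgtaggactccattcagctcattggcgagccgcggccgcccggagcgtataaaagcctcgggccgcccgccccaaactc
CPA4, chr7:130292911-130293160, plus strand: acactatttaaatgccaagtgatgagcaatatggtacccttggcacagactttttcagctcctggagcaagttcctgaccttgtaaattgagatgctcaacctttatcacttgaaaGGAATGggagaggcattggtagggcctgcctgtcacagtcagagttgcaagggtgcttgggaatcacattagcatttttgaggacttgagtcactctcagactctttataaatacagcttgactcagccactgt
THBS1, chr15:39580829-39581078, plus strand: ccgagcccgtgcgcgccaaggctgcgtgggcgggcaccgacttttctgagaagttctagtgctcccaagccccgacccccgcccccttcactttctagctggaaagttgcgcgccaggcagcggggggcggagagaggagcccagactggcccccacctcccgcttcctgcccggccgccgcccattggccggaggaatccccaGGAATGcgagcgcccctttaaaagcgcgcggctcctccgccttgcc

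Over whole sets of promoters (250 bases before to 50 after the start), GGAATG on either strand was found in 14% of the 27305 promoters of the RefSeq table and in 10.9% of the 12440 promoters matched to genes tested. It was found in 16.3% of the promoters of DEGs that were higher, in 24.9% of those with a log2FC of at least 2 and in 10.3% of those of DEGs that were lower. Of the 15 largest increases 11 had a promoter in the table and 5 of these held the motif. The AP-1 motif TGANTCA was found in 4.57% of promoters of genes tested, 7.99% of those of higher DEGs, 11.7% of those with a log2FC of at least 2 and 4.49% of those of lower DEGs. For RBPJ, the DNA-binding partner of Notch and Mastermind, the motif GTGGGAA was found in 5.88%, 6.23%, 7.32% and 5.18% of the same sets. The E-box CACGTG had shares of 9.67%, 7.86%, 3.41% and 8.87%. Over all 27305 promoters of the RefSeq table the shares were 7.76% for AP-1, 6.28% for RBPJ and 7.43% for the E-box. For AP-1 and RBPJ these were near the shares of higher DEGs. Promoters of the sets also differed in base composition, with a median GC content of 65.3% over genes tested, 54.3% at a log2FC of at least 2 and 69.0% for lower DEGs, and its part in the motif shares was not tested.

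The 15 largest increases among protein-coding DEGs of at least 10 CPM counted ANKRD1, CCN1, CCN2 and MAML2 and also included structural proteins of epithelium and muscle and several secreted proteins. KRT4, a keratin of stratified epithelia (chromosome 12, 52806549 to 52814116), had 46.4, 42.0 and 34.9 CPM in condensed libraries and no count in the 3 eGFP libraries. TTR, the blood carrier of thyroid hormone and retinol (chromosome 18, 31557009 to 31598833), had 18.0, 19.99 and 21.2 CPM and again no eGFP count. ACTBL2, an actin-like gene with close relatives that may share its reads, had 10.5, 12.1 and 9.52 CPM and no eGFP count. Against a floor of 3 counts over the eGFP group, KRT4 was at least 659-fold, TTR at least 317-fold and ACTBL2 at least 171-fold higher.

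A second set of these genes had 1 to 3 counts in the eGFP group. CPA4, a carboxypeptidase (chromosome 7, 130293134 to 130324180), had 77.9, 84.7 and 77.0 CPM in condensed libraries and 1 count in all in eGFP libraries, a ratio of 3.85e+03 with a 95% counting interval of 690 to 1.52e+05. NPPB, which encodes a natriuretic peptide of the heart, had 20.1, 20.1 and 21.3 CPM, with a ratio of 491 (interval 136 to 4.06e+03). IGFL2, a secreted protein of the IGF-like family, had 18.2, 14.5 and 11.96 CPM, with a ratio of 244 (interval 83.1 to 1.18e+03). These intervals are exact and cover counting error only. All 3 genes were silent or nearly so in eGFP cells, so the width of each interval comes from the eGFP side.

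THBS1, the matricellular protein thrombospondin 1 (chromosome 15, 39581079 to 39599466), had 60.4, 72.1 and 62.7 CPM in condensed and 0.312, 0.590 and 0.594 CPM in eGFP libraries (log2FC 7.01, standard error 0.296). ALPK2, an alpha kinase, had 25.8, 29.2 and 30.2 CPM against 0.250, 0 and 0.132 CPM (log2FC 7.75, standard error 0.656). In both genes the condensed libraries lay close together and the spread was in the few eGFP counts. COL5A3, a chain of collagen V, had 9.74, 8.95 and 12.6 CPM against 0.125, 0.118 and 0.396 CPM (log2FC 5.60, standard error 0.528). KRT8, which pairs with KRT18 in simple epithelia and whose reads pseudogene copies may share, had 894, 809 and 811 CPM against 34.4, 30.1 and 33.7 CPM (log2FC 4.68, standard error 0.103). All 15 remained DEGs in the GC-adjusted fit, with a log2FC of 4.78 to 12.54 there. The upper end is that of KRT4, which had no eGFP count, and so comes from the fit and is not a measured fold.

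**Figure D2:**
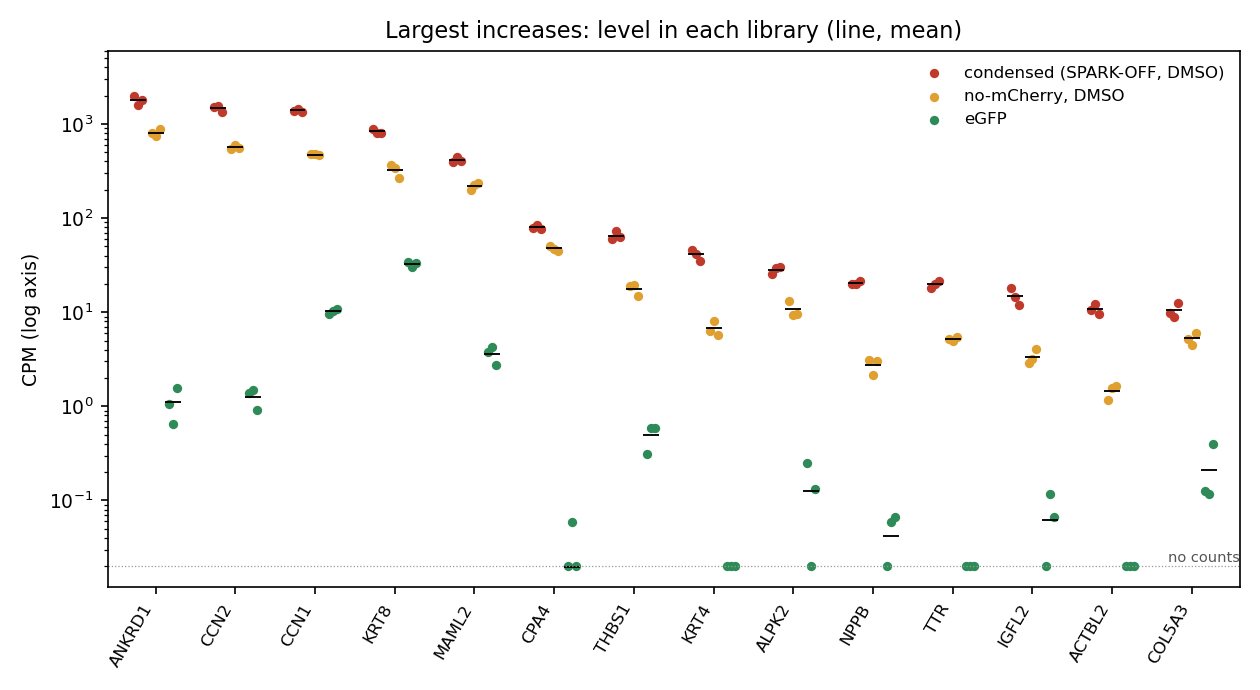
The level of 14 of the 15 largest increases is shown in each library in CPM on a log axis, with condensed cells in red, no-mCherry cells with DMSO in yellow and eGFP cells in green, and a line at the mean of 3 libraries. Points on the dotted line had no counts, as in all 3 eGFP libraries for KRT4, TTR and ACTBL2, and the no-mCherry mean lies between the other means for all 14 genes.

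The 15 largest decreases under the same rule had a log2FC between -2.21 and -1.49 and included genes of insulin signalling, adhesion, neurons and Wnt signalling. IRS4, an insulin receptor substrate that HEK293 cells express strongly (X chromosome, 108719946 to 108736563), had 506, 684 and 606 CPM in condensed and 1971, 1942 and 2092 CPM in eGFP libraries (log2FC -1.74, standard error 0.1001). CA2, a carbonic anhydrase, had 204, 197 and 204 CPM against 603, 568 and 576 CPM (log2FC -1.53, standard error 0.0792). DDIT4 (REDD1), a stress-induced inhibitor of mTORC1, had 35.9, 36.9 and 36.4 CPM against 143, 102 and 123 CPM (log2FC -1.75, standard error 0.130). All 3 genes were still expressed in condensed cells.

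The lowest log2FC of the rule was that of FZD10, a Wnt receptor, with 2.55, 3.65 and 1.80 CPM against 11.6, 12.5 and 13.1 CPM (log2FC -2.21, standard error 0.276). KRTAP19-1, a hair keratin-associated protein (chromosome 21, 30479706 to 30480367), had 9.74, 10.3 and 10.2 CPM against 51.5, 41.5 and 36.0 CPM (log2FC -2.10, standard error 0.144). Perlecan, a heparan sulfate proteoglycan of basement membranes (HSPG2), had 6.55, 10.1 and 5.72 CPM against 25.9, 22.9 and 30.9 CPM (log2FC -1.83, standard error 0.190). Non-overlap between the groups was a condition for these 15 genes. Condensed replicate 2 was the highest of its group for FZD10, HSPG2 and, by a small margin, KRTAP19-1.

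Among the others, NEFM, a neurofilament subunit, had 32.0, 37.2 and 35.5 CPM in condensed and 91.4, 110 and 120 CPM in eGFP libraries. MAF, a bZIP transcription factor, had 27.0, 27.6 and 30.4 CPM against 85.8, 74.0 and 79.7 CPM. CACNA1H, a T-type calcium channel, had 24.4, 26.0 and 26.5 CPM against 72.4, 68.3 and 81.6 CPM. Their log2FC was -1.62 for NEFM, -1.497 for MAF and -1.53 for CACNA1H. The rest of the 15 were the atypical cadherin FAT3, the adhesion protein SDK2, STUM, the ubiquitin ligase NEURL1B, AGAP2 and the zinc finger factor TSHZ1. All 15 remained DEGs in the GC-adjusted fit, at a log2FC of -2.25 to -1.02, and HSPG2 moved most, from -1.83 to -1.17.

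**Figure D3:**
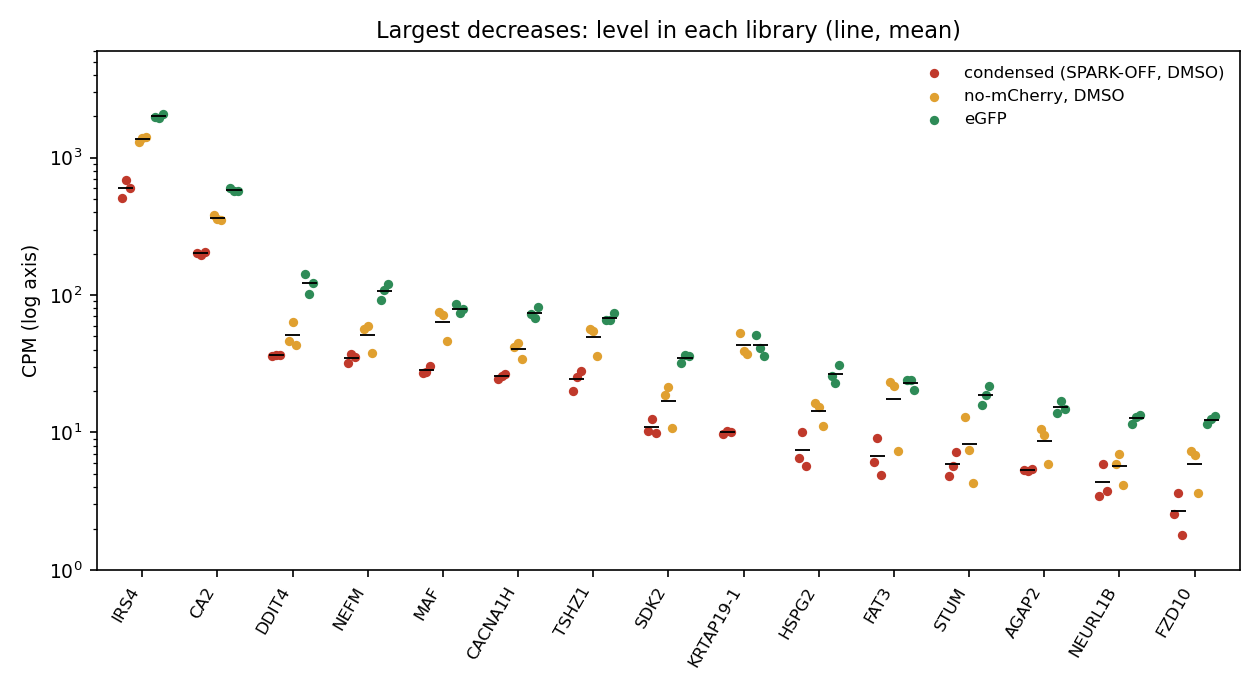
The level of the 15 largest decreases is shown in each library in CPM on a log axis, with the same colours as for the increases (condensed red, no-mCherry with DMSO yellow, eGFP green) and a line at each mean. Condensed libraries lie below all eGFP libraries for every gene, which the choice of genes required, and 1 no-mCherry library (replicate 3) is often below the other two.

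DEGs were also ranked by the CPM gained or lost. After ANKRD1, CCN2, CCN1, KRT8 and MAML2, the largest gains in mean CPM were those of MT-ND3, DDAH1, AMOTL2, SLC38A2 and KRT18. MT-ND3, a subunit of mitochondrial complex I, had 1432, 1191 and 1297 CPM in condensed and 842, 734 and 695 CPM in eGFP libraries (log2FC 0.79). DDAH1, an enzyme that degrades inhibitors of nitric oxide synthase, had 303, 326 and 320 CPM against 43.7, 44.5 and 49.1 CPM (log2FC 2.79). SLC38A2, a transporter of neutral amino acids, had 391, 386 and 419 CPM against 213, 225 and 209 CPM (log2FC 0.89). KRT18, the partner of KRT8 in simple epithelia, had 211, 203 and 187 CPM against 23.4, 23.5 and 24.5 CPM (log2FC 3.07), and its annotated span overlaps that of KRT8. Among DEGs, which leaves out genes under the fold threshold, the largest losses after IRS4 were those of FASN, CKB, CA2, AMOT, ZNF703, SRRM2, PRKDC and SLIT2. FASN, the fatty acid synthase, had 457, 557 and 536 CPM in condensed and 806, 958 and 1083 CPM in eGFP libraries (log2FC -0.88, and -0.37 in the GC-adjusted fit). CKB, the brain creatine kinase, had 809, 761 and 783 CPM against 1170, 1204 and 1254 CPM (log2FC -0.62, and -0.38 when GC-adjusted). FASN, CKB, SRRM2, PRKDC and SLIT2 were under the fold threshold in the GC-adjusted fit, with no change of direction. The splicing protein gene SRRM2 and the DNA repair kinase gene PRKDC were near the fold threshold, at a log2FC of -0.59 each, and SRRM2 went under it when condensed replicate 1 (-0.46), eGFP replicate 2 (-0.55) or eGFP replicate 3 (-0.49) was left out. PRKDC did so with the same 3 libraries, at -0.43, -0.55 and -0.50.

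Gene lists were read next, by role. A member was called at an adjusted p under 0.05, at which 13% of all genes tested were higher and 14.1% lower, and in the GC-adjusted fit 16.4% and 13.3%. The median log2FC over all genes tested was 0.00446. Of 22 core YAP targets, 13 were higher and 2 lower, with a median log2FC of 0.868, and in the GC-adjusted fit 15 were higher and 2 lower. AMOTL2, an angiomotin that binds YAP at junctions, had 253, 288 and 254 CPM in condensed and 11.8, 13.03 and 13.7 CPM in eGFP libraries (log2FC 4.37, standard error 0.0977). CRIM1, a transmembrane regulator of BMPs, rose by a log2FC of 2.03 and TGFB2, a growth factor, by 3.64. The 2 that fell were FOXF2 (log2FC -0.57), a forkhead factor, and ARHGEF17 (log2FC -0.80), a guanine nucleotide exchange factor. F3, tissue factor, had 3.68 CPM in condensed and 3.34 CPM in eGFP cells (log2FC 0.14, adjusted p = 0.709), and the receptor kinase AXL had 0.685 and 0.6998 CPM (log2FC -0.06). The study's 42 genes labelled in its plot of this comparison comprised 39 that were higher and 3 that were lower, but the study chose them on these samples, so their count is not independent evidence of direction.

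Of 28 Hippo kinases, scaffolds and restraints of YAP, 10 were higher and 3 lower (12 and 2 in the GC-adjusted fit). The kinase LATS2, which phosphorylates YAP, had 54.0, 66.9 and 57.3 CPM in condensed and 11.7, 14.3 and 15.1 CPM in eGFP libraries (log2FC 2.12). AJUBA, a LIM protein that binds LATS kinases, had 176, 168 and 172 CPM against 35.4, 34.2 and 37.6 CPM (log2FC 2.27). NUAK1, an AMPK-related kinase, had 153, 173 and 163 CPM against 19.7, 18.9 and 24.6 CPM (log2FC 2.95). The angiomotins moved in opposite directions, since AMOT, another angiomotin, had 198, 288 and 224 CPM against 532, 601 and 665 CPM (log2FC -1.34, adjusted p = 9.97e-07). Among 7 TEAD and VGLL genes, TEAD1 rose by a log2FC of 0.80 and TEAD2 fell by 0.70 on the log2 scale.

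AP-1 factors, which bind many enhancers together with TEADs, were more often higher than lower. Of 13 AP-1 and ATF subunits, 7 were higher (53.8%) and 2 lower (15.4%), beside 13% and 14.1% of all genes tested. The median log2FC was 0.363, and in the GC-adjusted fit 8 were higher and 2 lower. Only 1 was lower without condensed replicate 2 or 3 or eGFP replicate 1 or 3. FOSL2 had 22.5, 24.4 and 22.2 CPM in condensed and 5.50, 5.13 and 3.96 CPM in eGFP libraries (log2FC 2.24), and ATF3 rose by 1.57, FOSB by 1.496 and FOS by 1.60. JUN, the most studied partner of FOS, had 207, 216 and 213 CPM against 362, 270 and 325 CPM (log2FC -0.59, adjusted p = 0.00236). The 32 immediate early genes and MAPK feedback regulators included 8 that were higher and 1 that was lower. The kinase gene PIM1 rose by 2.16, the cytokine signalling inhibitor SOCS3 by 2.96 and the phosphatase DUSP1 by 1.61. MYC was the member that fell, from 85.6 to 50.9 CPM (log2FC -0.75).

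Secreted factors and their binding proteins contained some of the larger increases. Of 48 growth factors, cytokines and peptide hormones, 17 were higher and 6 lower (18 and 7 in the GC-adjusted fit), with a median of 0.32. Of the 17, 1 had no eGFP count and could only come out higher. ADM, the vasodilator adrenomedullin, had 64.9, 56.95 and 64.4 CPM in condensed and 8.12, 8.02 and 6.53 CPM in eGFP libraries (log2FC 3.04). FSTL3, which binds activin, had 117, 114 and 122 CPM against 16.0, 12.9 and 13.7 CPM (log2FC 3.05). DKK1, an inhibitor of Wnt signalling, had 42.7, 34.7 and 46.6 CPM against 2.94, 2.83 and 2.05 CPM (log2FC 3.98). BMP4 rose by 1.99 and BMP2 was lower, with a log2FC of -0.89. Of 11 IGF binding proteins, receptors and relays, 3 were higher (IGFBP7 by 4.0, IGFBP6 by 1.85 and IGFBP3 by 3.22) and 3 lower (IGFBP2, IGFBP5 and IRS1, log2FC -0.77 to -0.56). Of 26 plasminogen, coagulation and serpin genes, 6 were higher and 5 lower. ANXA1, a phospholipid-binding annexin, rose by 4.18 and S100A10, the partner of annexin A2, by 1.44, while PLAT, the tissue plasminogen activator, had a log2FC of -1.28.

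**Figure D4:**
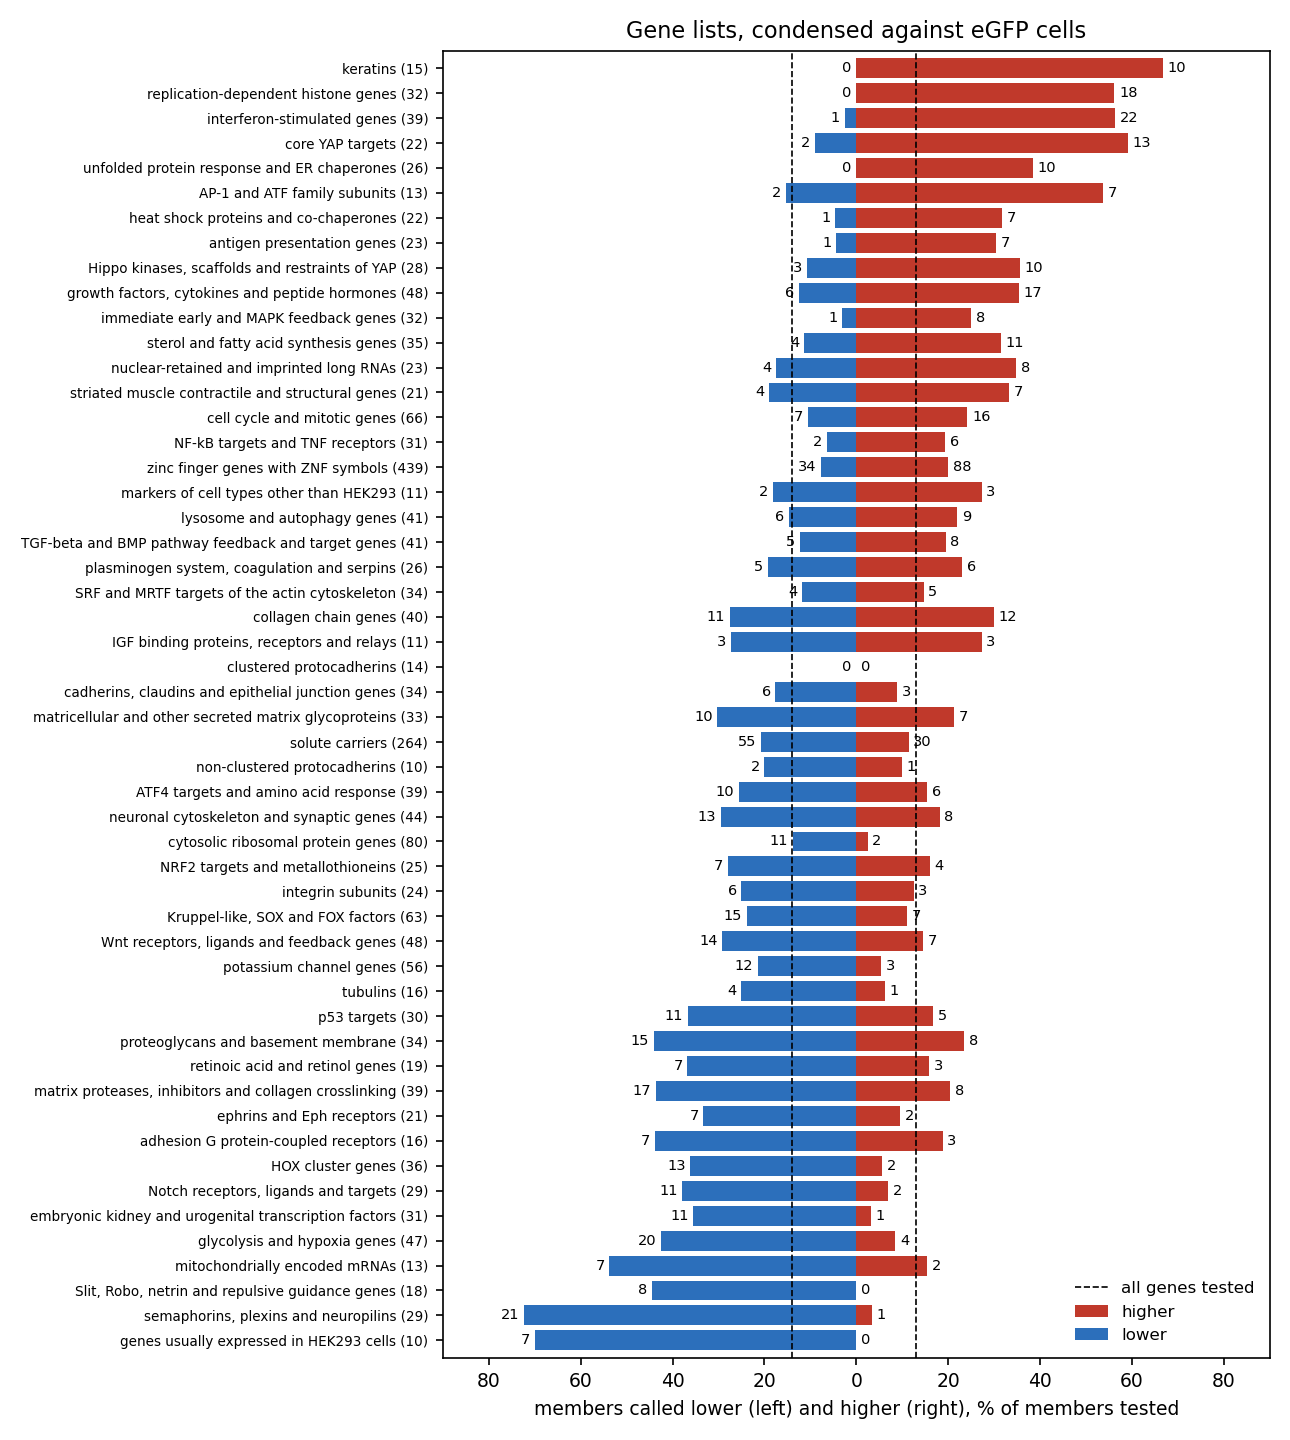
For each gene list with at least 10 members tested (number in brackets), the study's own plot list and 1 other left out, bars show the percentage of members called higher (red, right) and lower (blue, left) in condensed against eGFP cells at an adjusted p under 0.05, with the number of members at the end of each bar. Dashed lines mark the share of all genes tested, 13% higher and 14.1% lower, and keratins, histones and interferon-stimulated genes lie at the top and semaphorins and HEK293 genes at the bottom.

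Several keratins were among the larger increases. Of 15 keratins tested, 10 were higher and none was lower, but 6 of the 10 had no count in eGFP cells, passed the filter only through libraries with the fusion and so could only come out higher. The other 4 that were higher were KRT8, KRT18, KRT17 and KRT10. KRT17 rose by 3.40, and KRT84 and KRT1 had no eGFP count and were at least 38.5-fold and 24.97-fold higher. The count of 0 lower came from edgeR's quasi-likelihood test with Benjamini-Hochberg adjustment, DESeq2 also gave 0, edgeR's likelihood ratio test gave 1, and 1 keratin was lower at an unadjusted p under 0.05 in the quasi-likelihood test. Several of these genes are neighbours in the keratin cluster of chromosome 12, where KRT84, KRT6A, KRT1, KRT4, KRT18 and KRT8 lie within 52377812 to 52952906 and were all DEGs with a log2FC of at least 2. This was part of a wider grouping. Of 230 protein-coding DEGs with a log2FC of at least 2, 55 (23.9%) had another such gene within 250 kb, beside 6.54% of all protein-coding genes tested. Genes with no eGFP count, such as KRT84, KRT1, KRT4 and MYH2, are within these counts and could only come out higher. The share without them is not given here. Other such neighbours were MMP10, MMP12 and MMP13 (matrix proteases), PSG4, PSG5 and PSG9 (pregnancy-specific glycoproteins), DDAH1 and CCN1, and the muscle myosins MYH1 and MYH2. Of the protein-coding DEGs with a log2FC of -1 or below, 63 of 322 (19.6%) had another such gene within 250 kb, beside 13% of all protein-coding genes tested. Neighbouring genes can share reads where they overlap, and the window was chosen after the data were seen.

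Lineage genes outside the kidney appeared at low levels. MYH2, a myosin of fast skeletal muscle, had 7.28, 8.95 and 7.27 CPM in condensed libraries and no eGFP count (at least 126-fold higher), and CCL20, a chemokine, had 4.92, 4.58 and 4.89 CPM and no eGFP count (at least 76.9-fold higher). PSG4 had 8.48, 10.1 and 8.49 CPM against 0, 0.590 and 0 CPM, and all eGFP counts of it were in 1 library. MYOCD, the smooth and cardiac muscle coactivator myocardin, had 8.15, 10.7 and 9.97 CPM against 0, 0.0590 and 0.0660 CPM. Of 21 striated muscle genes, 7 were higher and 4 lower, but 4 were higher when condensed replicate 3 or eGFP replicate 3 was left out, and 1 was lower in the GC-adjusted fit. Of the 7, 2 had no eGFP count and could only come out higher. Of the 11 markers of other cell types tested, 3 were higher (27.3%) and 2 lower (18.2%), with 1 higher in a fit of the compared groups alone and 0 with a filter of 1 CPM in 3 libraries. KRT14 and COL1A2 had no eGFP count and could only come out higher. KRT14, CDH5 and COL1A2 were higher at means under 1 CPM, and the cadherin CDH1 (2.96 against 8.53 CPM) and the collagen COL1A1 (17.0 against 31.1 CPM) were lower.

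Most genes listed for the kidney line itself were lower. Of the 10 HEK293 genes, 7 were lower and none was higher, with a median log2FC of -0.68 (6 lower in the GC-adjusted fit, with 0 higher in both fits, by DESeq2 and at an unadjusted p under 0.05 in edgeR). VIM, vimentin, had 147, 134 and 128 CPM in condensed and 224, 211 and 218 CPM in eGFP libraries (log2FC -0.67). The kidney regulators EYA1 (log2FC -1.17), SALL1 (-0.69) and PAX2 (-0.96) were lower. CDH2, LHX1 and ENO2 did not pass the test. Of 31 embryonic kidney and urogenital transcription factors, 11 were lower and 1 was higher (8 and 3 in the GC-adjusted fit), and the one that rose was SALL4, an embryonic stem cell factor, from 2.14 to 12.5 CPM. Of 36 HOX cluster genes, 13 were lower and 2 higher (12 and 2 in the GC-adjusted fit). HOXD10 (log2FC -0.65) and HOXD13 (-0.47) were among the lower, and the 2 higher, HOXC12 (1.67) and HOXC11 (0.53), lie next to each other, and 1 was higher without eGFP replicate 3. Less of one kind of RNA per cell and fewer cells that make it cannot be told apart in bulk samples.

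Axon guidance genes that passed the test were mostly lower. Of 29 semaphorins, plexins and neuropilins, 21 were lower and 1 was higher, with a median of -0.57. The GC content of these genes was high (median 58.6%), and in the GC-adjusted fit 14 were lower and 2 higher. SEMA3F, a secreted repulsive cue, had 12.1, 14.8 and 10.99 CPM in condensed and 29.8, 28.0 and 32.5 CPM in eGFP libraries (log2FC -1.25). PLXND1, a semaphorin receptor, had 16.4, 19.8 and 21.5 CPM against 38.9, 44.2 and 46.1 CPM (log2FC -1.17). SEMA3C was the member that rose, with 75.9, 78.0 and 75.5 CPM against 43.3, 43.6 and 35.9 CPM (log2FC 0.90). The plexin PLXNA1 had a log2FC of -0.55 that went to -0.08 in the GC-adjusted fit and was no longer called. Of 18 Slit, Robo, netrin and repulsive guidance genes, 8 were lower and none was higher (7 and 0 in the GC-adjusted fit, with 0 higher also by DESeq2 and at an unadjusted p under 0.05 in edgeR). SLIT2, a ligand of Robo receptors, had 310, 369 and 359 CPM against 572, 562 and 578 CPM (log2FC -0.72), and RGMA, a repulsive guidance molecule, had a log2FC of -1.36. Of 21 ephrins and Eph receptors, 7 were lower and 2 higher, and none was higher without condensed replicate 3 and 1 without any other of the 6 libraries.

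Notch genes are of interest because MAML2 normally serves Notch. Of 29 Notch receptors, ligands and targets, 11 were lower and 2 higher, with a median of -0.37, and the GC-adjusted fit also called 11 lower, with 3 higher. The target HEY1 had 95.8, 105 and 98.2 CPM in condensed and 191, 191 and 200 CPM in eGFP libraries (log2FC -0.96). The receptor NOTCH3 had 58.2, 73.7 and 69.1 CPM against 137, 159 and 166 CPM (log2FC -1.20). The ligand JAG1 was one of the 2 that rose, with 19.8, 18.8 and 20.1 CPM against 8.37, 6.72 and 7.59 CPM (log2FC 1.37). HES1, a widely used readout of Notch, had 32.2 and 37.0 CPM (log2FC -0.20) and RBPJ 82.2 and 91.6 CPM (log2FC -0.16), and neither passed the test. Of 48 Wnt genes, 14 were lower and 7 higher, but 8 and 8 in the GC-adjusted fit, and 9 were lower without condensed replicate 3.

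Matrix genes moved both ways. Of 40 collagen chains, 12 were higher and 11 lower (15 and 7 in the GC-adjusted fit). COL3A1, a fibrillar collagen, had 35.2, 41.8 and 39.2 CPM in condensed and 3.19, 7.49 and 5.61 CPM in eGFP libraries (log2FC 2.83), and COL12A1, which binds fibrils, rose by 3.40. COL27A1 had 25.9, 29.0 and 28.7 CPM against 56.0, 60.4 and 60.1 CPM (log2FC -1.08, and -0.68 when GC-adjusted). Of 34 proteoglycan and basement membrane genes, 8 were higher and 15 lower, and of 39 matrix proteases, inhibitors and crosslinking genes, 8 were higher and 17 lower. Among the genes called higher, 1 collagen and 1 proteoglycan or basement membrane gene had no eGFP count and could only come out higher. Glypicans GPC3 (log2FC 0.88) and GPC5 (1.49) were among the higher, and VCAN (-1.39), AGRN (-0.88) and LAMA5 (-1.07) among the lower. Of 34 SRF and MRTF targets, 5 were higher and 4 lower, and 11 and 3 in the GC-adjusted fit. The number lower was 2 with library totals, 1 without condensed replicate 1 and 2 without condensed replicate 3, eGFP replicate 2 or eGFP replicate 3. CAV1, the main protein of caveolae, had 152, 122 and 134 CPM against 22.6, 21.0 and 16.0 CPM (log2FC 2.77).

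Interferon-stimulated genes that passed the test were mostly higher. Of 39 tested, 22 were higher and 1 was lower, with a median of 0.73, and the GC-adjusted fit called 24 higher and 0 lower. IFI6, which acts at mitochondria, had 58.1, 44.9 and 54.1 CPM in condensed and 10.1, 8.55 and 10.3 CPM in eGFP libraries (log2FC 2.44). ISG15, a ubiquitin-like modifier, had 15.8, 10.4 and 16.8 CPM against 5.19, 3.95 and 6.73 CPM (log2FC 1.44). The groups did not overlap for either gene. The member that fell was DHX58, an RNA sensor (log2FC -1.18), which did not pass the test in the GC-adjusted fit or when any library other than eGFP replicate 3 was left out. Of 23 antigen presentation genes, 7 were higher and 1 lower, with B2M (log2FC 0.61) and NLRC5 (0.91) among the higher and TAPBPL (-1.34) the lower, a call lost on leaving out any 1 of the 6 libraries. Promoters of interferon-stimulated genes carry the interferon response element, searched here as TTTCNNTTT on either strand. Of the 19 promoters of interferon-stimulated genes called higher in the RefSeq table, 16 held it, beside 6.95% of those of genes tested. Such genes carry the element whether called or not, and members not called are not given here, so this share does not bear on the calls. The promoter of IFI6 (GRCh38.p14, 250 bases before the start, on the strand of the gene) is shown as an example with its 3 matches, at 155, 114 and 92 bases before the start, in capitals.
IFI6, chr1:27672193-27672442, minus strand: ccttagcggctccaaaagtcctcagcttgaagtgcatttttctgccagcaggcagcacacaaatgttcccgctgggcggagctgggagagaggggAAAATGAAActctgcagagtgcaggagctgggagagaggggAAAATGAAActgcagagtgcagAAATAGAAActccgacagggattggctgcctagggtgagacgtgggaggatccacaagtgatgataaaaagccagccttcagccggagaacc

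Histones and other nuclear genes followed. The 32 histone genes of the replication-dependent kind included 18 that were higher and 0 that were lower, with a median of 1.54 (20 higher and 0 lower in the GC-adjusted fit, with 0 lower also by DESeq2 and at an unadjusted p under 0.05 in edgeR). H1-2, a linker histone, had 44.1, 34.9 and 43.98 CPM in condensed and 13.7, 13.4 and 12.5 CPM in eGFP libraries (log2FC 1.63). H2BC12 had 133, 131 and 134 CPM against 48.7, 51.7 and 43.4 CPM (log2FC 1.47). Reads may be split among histone copies of nearly the same sequence, and their mRNAs normally lack a poly(A) tail. Of the 18 promoters of the called members 16 held CCAAT, beside 36.3% of those of genes tested. The share for histone genes that were not called is not given here, so this one does not bear on the calls. Of 439 zinc finger genes with ZNF symbols, 88 were higher and 34 lower (110 and 29 in the GC-adjusted fit), and 17 were lower without condensed replicate 1 and 20 without eGFP replicate 2. ZNF721 had 92.6, 82.1 and 99.5 CPM against 42.6, 44.2 and 43.3 CPM (log2FC 1.07). ZNF703, a corepressor, was lower, with 177, 188 and 194 CPM against 413, 451 and 504 CPM (log2FC -1.29). Of 66 cell cycle genes, 16 were higher and 7 lower. The CDK inhibitor genes CDKN1B (log2FC 1.03) and CDKN2B (1.17) rose and CDKN1A (-0.79) and CDKN1C (-1.38) fell, and 4 of the 66 were lower without condensed replicate 3 or eGFP replicate 2. Of 30 p53 targets, 5 were higher and 11 lower, with 6 lower without condensed replicate 3 and 7 without eGFP replicate 3.

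Of 47 glycolysis and hypoxia genes, 20 were lower and 4 higher, with a median of -0.26 (22 and 4 in the GC-adjusted fit), and 2 were higher without condensed replicate 1. PFKL, a phosphofructokinase, had 109, 113 and 101 CPM in condensed and 165, 152 and 179 CPM in eGFP libraries (log2FC -0.62, and -0.22 when GC-adjusted), and BHLHE40, a hypoxia-induced repressor, had a log2FC of -1.23. The glucose transporter SLC2A3 went the other way, with 87.9, 83.6 and 88.3 CPM against 11.8, 11.7 and 10.7 CPM (log2FC 2.92). Of 35 sterol and fatty acid genes, 11 were higher and 4 lower. SC5D (log2FC 1.23) and HMGCS1 (0.69), of the cholesterol branch, rose, while FASN, ELOVL6 (-0.56), SREBF1 (-0.69) and ACACA (-0.46), of the fatty acid branch, fell. ACACA was not called in the GC-adjusted fit. Of 26 genes of the unfolded protein response, 10 were higher and none was lower (11 and 1 in the GC-adjusted fit, 1 lower by DESeq2 or without condensed replicate 2 or eGFP replicate 1, and 3 lower at an unadjusted p under 0.05 in edgeR), such as the chaperone HSPA5 with a log2FC of 0.38, and of 22 heat shock genes, 7 were higher and 1 lower. Of 13 mitochondrially encoded mRNAs, 7 were lower and 2 higher. MT-CO1, a subunit of complex IV, had 6341, 7020 and 5731 CPM against 8518, 8917 and 8996 CPM (log2FC -0.47), MT-ND3 and MT-ND4L (0.39) were the 2 that were higher, and the other 4 were not called. In the GC-adjusted fit 9 were lower and MT-ND3 alone was higher, and 1 was higher also without condensed replicate 2 or 3 or eGFP replicate 1 or 3. Of 80 cytosolic ribosomal protein genes, 11 were lower and 2 higher, and the number lower ranged from 5 without condensed replicate 3 to 24 in the GC-adjusted fit, and was 6 without condensed replicate 2 or eGFP replicate 1. The number higher was 0 without condensed replicate 1 or eGFP replicate 2 and 1 without replicate 3 of either group.

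Genes called were also counted by properties that no list used. Of 3093 long noncoding RNAs tested, 327 (10.6%) were higher and 128 (4.14%) lower, with a median log2FC of 0.14. Both shares were under those of all genes tested, 13% and 14.1%. The GC-adjusted fit gave 323 higher and 148 lower. Of 14056 protein-coding genes, 1965 (14%) were higher and 2395 (17%) lower, but 2614 and 2203 in the GC-adjusted fit. Among 423 processed pseudogenes, 17 (4.02%) were higher and 20 (4.73%) lower. Over 3 equal classes by mean CPM, the lowest had 9.76% higher and 4.63% lower, the middle one 12.9% and 22%, and the highest 16.2% and 15.8%. The 58 genes with no eGFP count, which could only come out higher, are within these counts by type and level.

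Across the chromosomes, the share of genes called lower was 20% on chromosome 22, 18.5% on chromosome 17 and 18.4% on chromosome 19, which are rich in GC, and 9.76% on chromosome 13. The share called higher was 18.3% on chromosome 13, 16.1% on chromosome 4 and 15.9% on chromosome 14. In the GC-adjusted fit the shares lower were 13.1% on chromosome 22, 13.3% on chromosome 17 and 13.4% on chromosome 19, and 12.4% on chromosome 13. The shares higher there were 18% on chromosome 13, 14.9% on chromosome 4 and 18.2% on chromosome 14. Nuclear chromosomes still differed in that fit, from 11.5% (chromosome 18) to 21.1% (chromosome 20) higher. The shares lower ran from 10.8% (chromosome 20) to 17.2% (chromosome 8). On the mitochondrial genome 8 of 16 genes were lower, and 11 in the GC-adjusted fit.

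GC content itself gave the clearest gradient. Over 5 equal classes of protein-coding genes, from the poorest to the richest in GC, the share called higher went from 23% to 17.6%, 13.4%, 9.75% and 6.08%, and the share called lower from 5.65% to 10.1%, 15.1%, 22.3% and 32.1%. The median log2FC went from 0.151 to -0.235, and for no-mCherry cells against the same eGFP libraries from 0.239 to -0.183. The 20% of genes with the longest transcripts had 22.5% lower and 10.5% higher, and 17.4% and 19.2% in the GC-adjusted fit. In the GC-adjusted fit, which removes the trend by construction, the shares lay between 17% and 19.9% higher and between 14.6% and 17.5% lower over the 5 classes of GC content. The part of library preparation in this gradient was not tested.

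**Figure D5:**
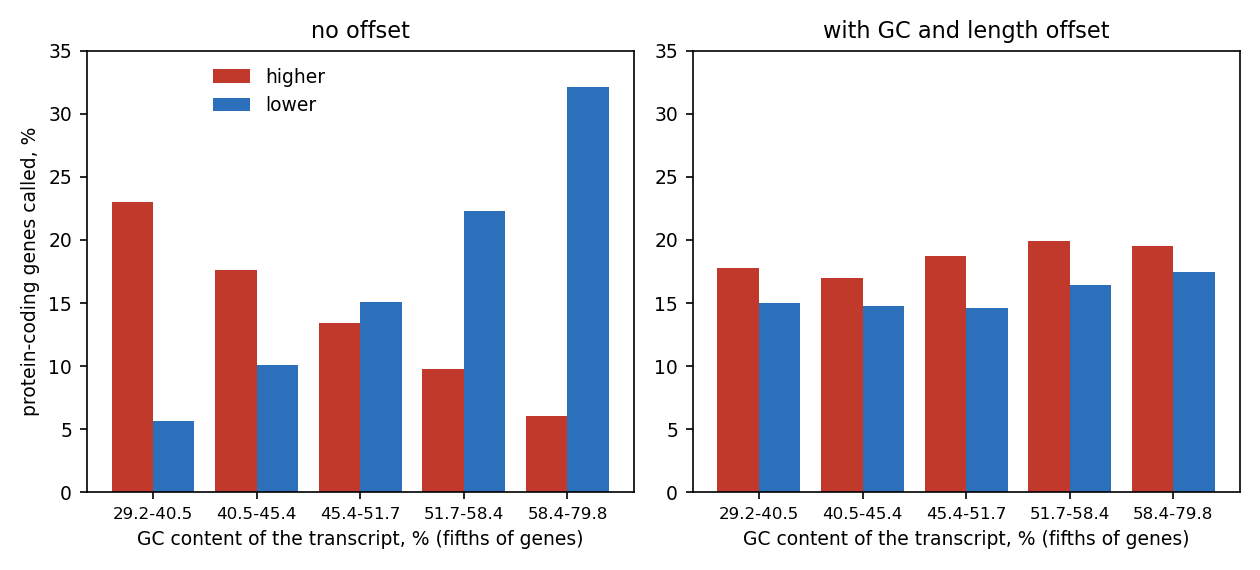
Bars show the percentage of protein-coding genes called higher (red) and lower (blue) in condensed against eGFP cells at an adjusted p under 0.05, over 5 equal classes of genes by the GC content of the longest transcript (x axis, percent). Without an offset (left) the share called lower climbs from 5.65% to 32.1%, and with the offset for GC content and length (right) the shares are nearly level.

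The fusion is also present in the no-mCherry cells with DMSO, which differ from the condensed cells by mCherry and by line. Of the genes tested, 830 (4.51%) were DEGs between condensed and no-mCherry cells. MAML2 had 199, 226 and 237 CPM there (log2FC of condensed against no-mCherry cells 0.91, adjusted p = 2.13e-06) and YAP1 had 143, 128 and 121 CPM (0.63), so condensed libraries were the higher for both. ANKRD1 had 800, 740 and 878 CPM in no-mCherry libraries (log2FC 1.15), CCN1 had 477, 476 and 469 CPM (1.55) and CCN2 had 544, 594 and 554 CPM (1.38). The no-mCherry mean lay between the condensed and the eGFP mean for all 15 largest increases and for 14 of the 15 largest decreases, in genes that were chosen for their condensed level. KRTAP19-1 was the exception, with 52.8, 39.4 and 37.0 CPM in no-mCherry libraries, near the eGFP values of 51.5, 41.5 and 36.0 CPM. DDIT4 had 46.3, 63.7 and 43.4 CPM there, nearer to condensed cells, and a log2FC of -0.49 against them (adjusted p = 0.0262) that was under the fold threshold. CPA4 had 50.4, 47.2 and 45.2 CPM, a difference of 0.75, while KRT4 had 6.32, 8.16 and 5.74 CPM, a difference of 2.60. No-mCherry replicate 3 stood apart from its group, since the GC-richest class of genes stood at -0.531 relative to the GC-poorest on the log2 scale, where the other two stood at 0.0146 and 0.0633, and without it 826 genes were DEGs. The named genes did depend on it. Of the 15 largest decreases, 11 were DEGs against no-mCherry cells with replicate 3 and 14 without it, and of the 15 largest increases 14 and 15. DDIT4 passed the fold threshold without it, at a log2FC of -0.60.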

How the data were processed

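RNA-seq was made from 15 libraries in 5 groups of 3, grouped by their labels, and the comparison used the condensed and the eGFP libraries, with the no-mCherry DMSO libraries beside them. Per the labels and methods, the authors used fastp for trimming and STAR with hg38 for alignment, and deposited raw counts per gene, for which their processing notes name HTSeq. Not given in the sources used here are the tool versions, the annotation, the strand setting and which edgeR test was used. With no strand setting, reads of overlapping or antisense genes cannot be told apart.

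The deposited counts were fitted with edgeR 4.0.16 (R 4.3.3, quasi-likelihood test, TMM, filterByExpr) over all 15 libraries, with Benjamini-Hochberg adjustment over 18391 genes. DESeq2 1.42.0, other scalings, filters, a replicate block and leaving out each library were alternatives. The GC-adjusted fit used loess offsets (span 0.3) on GC content and length. The script was tested on simulated data. Standard errors are Wald errors. Total counts of 14941777 to 21223087 in the 6 libraries limit precision for genes with few counts, and intervals and floors cover counting error only. No library pair of a group agreed within counting noise, so none was merged.

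Named were the fusion partners and the 3 leading targets, the 15 largest increases and decreases (protein-coding DEGs, at least 10 CPM in the higher group, no overlap), the 10 largest gains and losses in CPM (1 of them, and 1 of the 15 increases, is not reported here) and list members, first those with the smallest p. Neighbouring genes and the examples of lineage genes were picked after their values were seen. The members and lists were chosen with earlier results of these data known. Sequences come from RefSeq (GRCh38.p14), where 12440 genes tested had a promoter entry.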

Additional observations from a re-analysis of the deposited data

Results flagged for a closer look

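The fusion partners, the 3 leading targets and the 15 largest increases and decreases were examined, and genes are given where the fusion's difference from eGFP cells differed between the condensed and the no-mCherry line, which is the DEG test of condensed against no-mCherry cells with DMSO, because the eGFP libraries are common to both. Values are log2 differences, condensed minus no-mCherry. The fusion partner genes and targets with a higher level in condensed cells were YAP1 (0.627), MAML2 (0.914), ANKRD1 (1.15), CCN1 (1.55) and CCN2 (1.38). Among the other large increases they were KRT4 (2.6), CPA4 (0.748), TTR (1.92), ACTBL2 (2.86), NPPB (2.89), IGFL2 (2.15), ALPK2 (1.41), THBS1 (1.87), COL5A3 (0.979) and KRT8 (1.37). The genes with a lower level in condensed cells were FZD10 (-1.14), KRTAP19-1 (-2.1), HSPG2 (-0.935), FAT3 (-1.37), IRS4 (-1.19), SDK2 (-0.635), CACNA1H (-0.66), CA2 (-0.856), AGAP2 (-0.701), MAF (-1.18) and TSHZ1 (-1.01). Each of these genes had also changed in the same direction against eGFP cells, but the 15 largest increases and decreases were chosen by that change. The condensed libraries are common to both differences, so genes chosen for their condensed level lean the same way in both. Both lines' levels of MAML2 and YAP1 differed as well, and the part of the level of the fusion in the other differences was not tested.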

How the results depend on the processing

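Under all 16 alternatives the counts of DEGs stayed within 1.5 times the reported ones. Higher DEGs numbered from 982, with the 6 compared libraries alone, to 1495 with no filter, and lower DEGs from 882 in the GC-adjusted fit, which was added after the data were seen, to 1429 with no filter. Leaving out 1 library at a time gave 1026 to 1200 higher and 1108 to 1318 lower DEGs, and 615 to 826 against no-mCherry cells. Over the 43 named genes, 672 of the recomputed fold changes kept direction and call, 16 lost the call and 0 reversed, and the 16 were those of SRRM2, PRKDC, FASN, CKB and SLIT2. Of the counts of list members called, 1698 stayed within 1.5 times and 126 did not. With the replicate block the fit gave 1123 higher and 1259 lower DEGs and 783 against no-mCherry cells. Same-numbered condensed and eGFP replicates deviated together with correlations of 0.0912, 0.028 and 0.00611, beside -0.102 to 0.0756 for the other pairs. Correlations over all genes cannot show whether same-numbered samples were prepared together. The block moved no count of DEGs by over 1.5 times. Depth limits the genes with few eGFP counts, whose folds have wide intervals or are lower bounds.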
